A study of Homo sapiens with 2 samples.

Results

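The 10 genes described here encode the enzymes that build purine nucleotides from ribose 5-phosphate, from the synthesis of phosphoribosyl pyrophosphate (PRPP) to inosine monophosphate (IMP) and on to guanosine monophosphate (GMP). They were taken by name, in pathway order, as PRPS1, PPAT, GART, PFAS, PAICS, ADSL, ATIC, IMPDH1, IMPDH2 and GMPS, out of 28130 genes to which RefSeq transcripts in the deposited tables could be assigned. All 10 had reads in both libraries and passed a mean level of 1 CPM (counts scaled to library size), as did 13752 of the 28130 genes. The series holds 2 poly-A RNA libraries of HEK293T, a line derived from human embryonic kidney. In the tRF-3004b library, cells had received a synthetic copy of tRF-3004b, a fragment of a transfer RNA. In the control library, cells had received a non-targeting RNA called GL2. Both RNAs were delivered by reverse transfection with a lipid reagent at 500 nM and cells were harvested after 120 h, so the control cells were also transfected. With 1 library per group there was no replicate check. Each comparison is between these libraries, not the conditions, and the 95% intervals cover counting error only.

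The tRF-3004b library held 1809193 estimated counts and the control library 19609933, a 10.8-fold difference in depth. Of the genes chosen as markers of the kidney and neuronal lineage of these cells, VIM, EYA1 and NEFL had 1740, 53 and 94 counts in the tRF-3004b library and 28858, 1465 and 1950 in the control library. PAX2 had 2 counts in the tRF-3004b library and 19 in the control library, and LHX1 had 0 counts in the tRF-3004b library and 61 in the control library. Markers of blood, fibroblast and epithelial cells summed to 95.7 CPM in the tRF-3004b library and 4.86 CPM in the control library, with all 8 of these higher in the tRF-3004b library by CPM and none at 0 in either. Their part in the results below was not tested. Fewer cells of a type and less RNA per cell cannot be told apart in such bulk samples.

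Purine bases are assembled step by step on PRPP, with nitrogen from glutamine, glycine and aspartate and carbon from glycine, carbon dioxide and formyl groups carried by folate. Proliferating cells rely on this route, and cells can also recover bases by salvage. IMP is the branch point, from which the cell makes AMP or, through IMP dehydrogenase, GMP. The transcription factor MYC is known to bind E-boxes, DNA elements with the letters CACGTG, near several of these genes.

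The transfected RNAs are shown because bases 2 to 8 (in capitals) would form the seed if they acted as microRNAs do.
tRF-3004b, 22 bases: uCAAAUCUcgguggaaccucca
GL2 control, 21 bases: cGUACGCGgaauacuucgauu

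The complement of the tRF-3004b seed, AGATTTG, was looked for in 1 3′ UTR per gene, that of its most abundant transcript with a GENCODE 29 partner of like length, which ATIC lacked. It stood in 1898 of 11607 such UTRs (16.4%), and among the other 9 genes in those of ADSL and IMPDH1. The ADSL site is at base 1221 of the 2845-base 3′ UTR paired with NM_000026, a transcript that held 19.0% of ADSL counts in the tRF-3004b library and 17.8% in the control library. The IMPDH1 site is at base 89 of the 706-base 3′ UTR paired with NM_183243, which held all 51 IMPDH1 counts of the tRF-3004b library and 0 of the 269 of the control library. The complement of the control seed was in 33 UTRs (0.284%) and in none of these 9 genes. The sites are printed with 8 bases on each side, the seed complement in capitals, as the seed matches in the UTRs searched. Other parts and other transcripts of these genes were not searched.
ADSL, chromosome 22: tgtttatcAGATTTGcagatgac
IMPDH1, chromosome 7: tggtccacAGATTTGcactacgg

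As a group the enzyme transcripts stood almost level between the libraries in TMM-scaled counts, but not in TPM. The log2 ratio of tRF-3004b over control had a median of -0.0017 over the 10 genes, against -0.11 over the 13752 genes. Summed over the 10 genes, the pathway had 2916 CPM in the tRF-3004b library and 2945 CPM in the control library, and the log2 ratio of these sums was -0.01, with an interval from -0.06 to 0.03. Their summed TPM was 1935 in the tRF-3004b library and 2494 in the control library, and with TPM and 1 added the median was -0.38 for the 10 genes and for all genes. The interval of the count ratio lay above 0 for PRPS1, PPAT and IMPDH1, 3 of the 10, as it did for 23.3% of the 13752 genes and 26.8% of the 8711 genes with a mean of at least 10 CPM. It lay below 0 for GART, IMPDH2 and GMPS, again 3 of the 10, against 28.6% and 36.7% of these genes. IMPDH1 was the 1 member at least 2-fold higher, against 12.3% of all genes and 6.11% of those with at least 10 CPM. No member was at least 2-fold lower, against 14.3% and 8.6%.

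**Figure D1:**
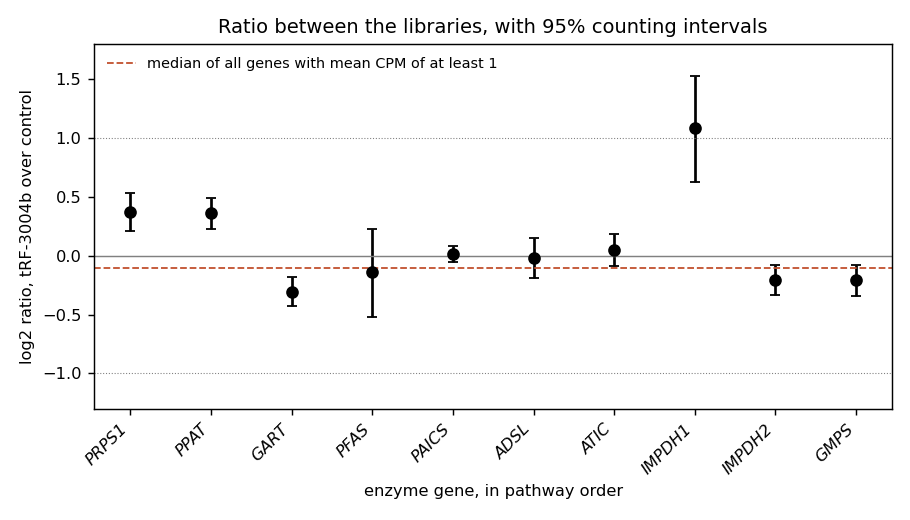
The log2 ratio of the tRF-3004b over the control library (vertical axis) is plotted for each of the 10 genes in pathway order, with 95% counting intervals, grey dotted lines at 2-fold and a dashed line at the median of all genes (-0.11). IMPDH1 stands at 1.09, and the other genes lie between -0.30 and 0.37.

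Levels between genes were compared in TPM (counts per transcript length, scaled to the same total in each library). In the tRF-3004b library they spanned 43.5-fold, from 12.5 TPM for PFAS to 542 TPM for PAICS, and in the control library 52.1-fold, from 13.2 TPM for IMPDH1 to 685 TPM for PAICS. PAICS ranked 259th of all genes by TPM in the tRF-3004b library and 184th in the control library. IMPDH2 came next in both libraries. The order of the rest was ATIC, GART, PRPS1, ADSL, PPAT, GMPS, IMPDH1 and PFAS in the tRF-3004b library, and GART, ATIC, ADSL, PRPS1, PPAT, GMPS, PFAS and IMPDH1 in the control library. The neighbours GART and ATIC, ADSL and PRPS1, and IMPDH1 and PFAS thus stood in opposite order in the 2 libraries. No interval was computed for these differences in order. In the tRF-3004b library PRPS1 and ADSL were close, at 177 and 170 TPM, and IMPDH1 and PFAS had only 51 and 66 counts.

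**Figure D2:**
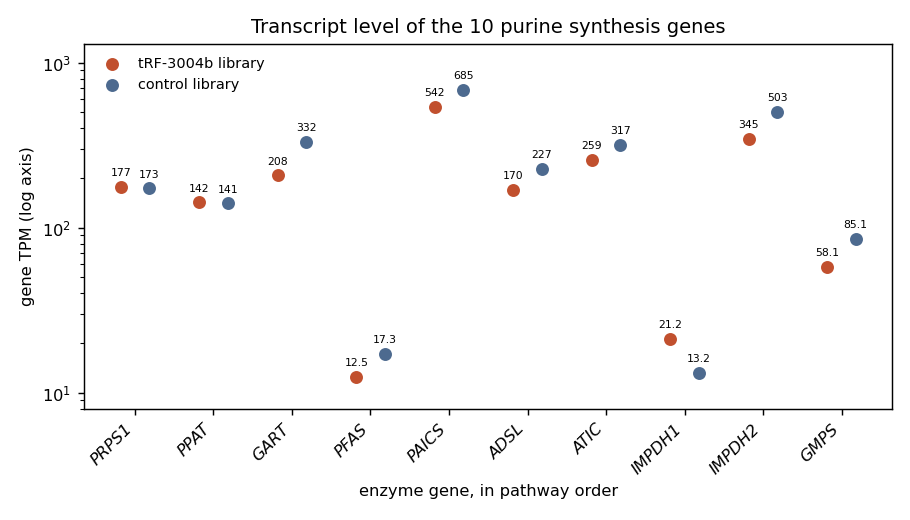
Gene TPM (vertical log axis) is plotted for the 10 genes in pathway order, with the tRF-3004b library at the left and the control library at the right of each pair. PAICS and IMPDH2 are the highest in both libraries, and PFAS and IMPDH1 lie below 25 TPM.

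The opening steps were higher in the tRF-3004b library. PRPS1 (chromosome X, 107628510 to 107651026, GRCh38), which makes PRPP from ribose 5-phosphate and ATP, had 347 counts in the tRF-3004b library and 3010 in the control library, or 195 and 151 CPM. Its log2 ratio was 0.37 (interval 0.21 to 0.53). PPAT (chromosome 4, 56393362 to 56435615), the glutamine-using amidotransferase of the committed step, had 513 counts in the tRF-3004b library and 4482 in the control library, or 289 and 225 CPM. Its log2 ratio was 0.36 (interval 0.23 to 0.49). By TPM these genes were nearly level, at 177 and 142 TPM in the tRF-3004b library and 173 and 141 TPM in the control library. With 1 TPM added the log2 differences were 0.03 and 0.02, on a scale on which the median of all genes was -0.38.

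Among other genes of PRPP synthesis, PRPS2, a close relative of PRPS1, had 284 counts in the tRF-3004b library and 3296 in the control library, a log2 ratio of -0.05 (interval -0.23 to 0.13). The log2 ratio of PRPS1 minus that of PRPS2 was 0.42 (interval 0.18 to 0.66), a difference that no library scaling can change. PRPS1 made up 60.4% of the summed TPM of the pair in the tRF-3004b library and 53.3% in the control library. PRPSAP1 and PRPSAP2, which associate with the synthetases, were at -0.72 (interval -1.17 to -0.30) and -0.51 (interval -0.78 to -0.25). PRPS1L1, the testis-expressed copy, had 0 counts in both libraries. It shared 109 of 2155 words of 31 bases with PRPS1, the length used here for sequence that the read counting could not tell apart.

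GART was lower in the tRF-3004b library. This gene (chromosome 21, 33503931 to 33542893) encodes a trifunctional enzyme of the steps after PPAT, including a folate-dependent formyl transfer. It had 579 counts in the tRF-3004b library and 8025 in the control library, or 326 and 402 CPM. The log2 ratio was -0.30 (interval -0.43 to -0.18), and by TPM the gene had 208 TPM in the tRF-3004b library and 332 TPM in the control library. PFAS (chromosome 17, 8247608 to 8270486) encodes a glutamine-dependent amidotransferase of the same route. It was among the least abundant, with 66 counts in the tRF-3004b library and 813 in the control library. Its log2 ratio was -0.13, and the interval from -0.52 to 0.23 held 0.

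In TMM-scaled counts the ratios of PAICS, ADSL and ATIC lay closest to 0 of the 10 genes. PAICS (chromosome 4, 56410507 to 56464578), which carboxylates the ring and adds aspartate, had 1803 counts in the tRF-3004b library and 20035 in the control library, or 1015 and 1005 CPM. Its log2 ratio of 0.01 had the narrowest interval of the 10 genes, from -0.06 to 0.08. ADSL (chromosome 22, 40346500 to 40387527), the lyase that then releases fumarate and also acts in AMP synthesis, had 308 and 3500 counts in the tRF-3004b and control libraries, a log2 ratio of -0.02 (interval -0.19 to 0.15). ATIC (chromosome 2, 215312059 to 215368592), the bifunctional enzyme that closes the ring to give IMP, had 482 and 5237 counts in the tRF-3004b and control libraries, a log2 ratio of 0.05 (interval -0.09 to 0.18). With TPM and 1 added PAICS, ADSL and ATIC were at -0.34, -0.42 and -0.29, and with length bin medians removed ADSL was at -0.30.

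The GMP branch held the largest ratio of the 10. IMPDH1 (chromosome 7, 128392277 to 128409982) and IMPDH2 (chromosome 3, 49024325 to 49029398) are alternative genes for IMP dehydrogenase, the rate-limiting enzyme of GMP synthesis. IMPDH1 had 51 counts in the tRF-3004b library and 269 in the control library, or 28.7 and 13.5 CPM, which was 2.12-fold higher with a log2 ratio of 1.09 (interval 0.63 to 1.53). IMPDH2 had 530 counts in the tRF-3004b library and 6848 in the control library, or 298 and 343 CPM. Its log2 ratio was -0.20, with an interval from -0.33 to -0.08. The log2 ratio of IMPDH1 minus that of IMPDH2 was 1.29 (interval 0.81 to 1.75). By TPM IMPDH2 was 16.2-fold more abundant than IMPDH1 in the tRF-3004b library and 38.2-fold in the control library, so that IMPDH1 gave 5.80% of the summed TPM of the pair in the tRF-3004b library and 2.55% in the control library. GMPS (chromosome 3, 155869430 to 155944020), which aminates XMP to GMP, had 502 counts in the tRF-3004b library and 6504 in the control library, a log2 ratio of -0.21 (interval -0.34 to -0.08). The log2 ratio of GMPS minus that of IMPDH2 was -0.0039, with an interval from -0.19 to 0.18. With length bin medians removed, however, GMPS was at 0.24 and IMPDH2 at -0.49.

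The 2-fold call of IMPDH1 depended on the scale, since with TPM and 1 added its log2 difference was 0.65. The median of all genes on that scale was -0.38. IMPDH1 shared 219 of 3114 words of 31 bases with CFLAR, so reads from these words could not be assigned to 1 gene by sequence alone. PAICS, GMPS, ADSL and PFAS shared 346, 282, 203 and 107 words with other genes, at most 61 of them with any 1 gene. Transcript length moved with the ratios across all genes, whose median was 0.55 among the shortest transcripts (10 bins by length) and -0.45 among the longest. With the bin median subtracted, GMPS, whose transcript has 8631 bases, stood at 0.24 and the median of the 10 genes at 0.17.

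**Figure D3:**
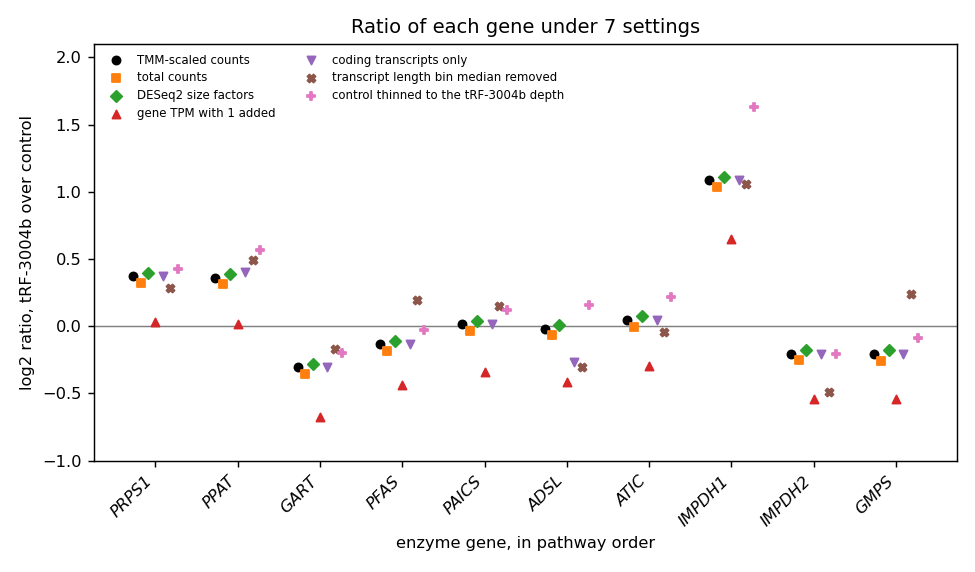
The log2 ratio of each gene (vertical axis) is plotted under 7 settings, with black circles for TMM-scaled counts. IMPDH1 ranges from 0.65 to 1.63 and GART from -0.67 to -0.17, whereas PFAS, PAICS, ADSL, ATIC and GMPS each lie on both sides of 0.

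PPAT and PAICS lie head to head on chromosome 4, and their ratios differed. The RefSeq start sites, PPAT on the minus strand and PAICS on the plus strand, have 136 bases between them. PAICS has further start sites in the table. PPAT minus PAICS was 0.35 in log2 ratio (interval 0.20 to 0.50), and PAICS had 3.81 times the TPM of PPAT in the tRF-3004b library and 4.88 times in the control library. GART also lies head to head with another gene, SON, whose log2 ratio was -0.15 (interval -0.24 to -0.05). The words of 31 bases that GART shared with SON numbered 214 of 4372.

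RefSeq promoter windows (GRCh38.p14, 250 bases before to 50 after the start) were matched for 8 of the 10 genes, with 12 windows in all, and none was matched for ADSL and IMPDH2. CACGTG stood in 3 of the 12 windows, those of PPAT, PAICS and ATIC, against 7.26% of 35116 windows of all genes. The PPAT and PAICS windows overlap by 236 bases, and their CACGTG is the same site, at 56435792 to 56435797. On the strand of each gene it lies at -182 from the PPAT start and at 40 from the PAICS start. The ATIC window holds the letters at 2 places. Of the other motifs searched on both strands, CCGGAAG (ETS-type, 10.3% of all windows) was in 1 GART window, and GCGCATGC (NRF1-type, 3.05%) and TGATGCAA (ATF4-type, 0.866%) were in none. A match describes letters only. The 3 windows with CACGTG (in capitals) are shown 5′ to 3′ on the strand of the gene.
PPAT, chr4:56435566-56435865, minus strand: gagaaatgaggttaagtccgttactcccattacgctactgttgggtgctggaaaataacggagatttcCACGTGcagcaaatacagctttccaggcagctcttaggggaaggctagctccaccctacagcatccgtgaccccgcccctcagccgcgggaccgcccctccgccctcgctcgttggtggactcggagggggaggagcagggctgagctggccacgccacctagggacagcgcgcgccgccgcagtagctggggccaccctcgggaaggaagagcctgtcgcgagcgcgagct
PAICS, chr4:56435502-56435801, plus strand: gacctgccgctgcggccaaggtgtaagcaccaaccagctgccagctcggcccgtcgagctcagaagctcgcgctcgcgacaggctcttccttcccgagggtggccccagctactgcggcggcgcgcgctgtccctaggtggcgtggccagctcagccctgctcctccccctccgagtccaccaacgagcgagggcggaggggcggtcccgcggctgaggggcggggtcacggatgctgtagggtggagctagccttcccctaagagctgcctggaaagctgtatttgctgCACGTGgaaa
ATIC, chr2:215311809-215312108, plus strand: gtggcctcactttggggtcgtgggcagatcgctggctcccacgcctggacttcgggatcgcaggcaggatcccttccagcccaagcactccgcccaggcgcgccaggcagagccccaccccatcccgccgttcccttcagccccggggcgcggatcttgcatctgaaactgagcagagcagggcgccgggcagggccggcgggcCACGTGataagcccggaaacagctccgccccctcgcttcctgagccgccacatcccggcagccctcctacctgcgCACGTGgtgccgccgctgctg

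MYC itself had 196 counts in the tRF-3004b library and 4142 in the control library, or 110 and 208 CPM. Its log2 ratio was -0.91 (interval -1.13 to -0.71). The 3 genes with CACGTG in the window, PPAT, PAICS and ATIC, stood at 0.36, 0.01 and 0.05. A link between MYC and these ratios was not tested. Of 11 genes of MYC, MAX and their partners, the intervals of 3 lay above 0 and those of 4 below, near the 23.3% and 28.6% of all genes. Their median was -0.13, and it turned to 0.30 with length bin medians removed, 0.19 with the control thinned and 0.13 at a mean CPM of at least 10. MXD3, with 7 counts in the tRF-3004b library and 34 in the control library, was at 1.19 (interval -0.21 to 2.40) and MXD1 at 0.94 (interval 0.37 to 1.47). MNT, with 3 counts in the tRF-3004b library and 193 in the control library, was at -2.49 (interval -4.81 to -0.95).

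Within genes, the estimated split over transcripts differed between the libraries most for GART, ADSL and IMPDH1, and by a few percent of counts for PPAT and PAICS. The GART transcript NM_175085, whose GENCODE partner encodes 433 residues in place of 1010, held 27.6% of GART counts in the tRF-3004b library (exact binomial interval 24.0% to 31.5%) and 33.0% in the control library (32.0% to 34.1%). The transcript NM_000819 held 72.4% in the tRF-3004b library and 58.2% in the control library. The GART transcripts NM_001136005 and NM_001136006 had 0 counts in the tRF-3004b library, against 614 and 91.3 in the control library. Of 579 GART counts, 0 allows a share of up to 0.635% by the exact interval, against 7.66% for NM_001136005 in the control library.

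ADSL was split over 5 transcripts. NM_001123378 had 29.6 counts (9.63%) in the tRF-3004b library and 1176 (33.6%) in the control library. The non-coding NR_134256 had 48.4 counts (15.7%) in the tRF-3004b library and essentially none in the control library. Summed over coding transcripts alone, ADSL had a log2 ratio of -0.27 rather than -0.02. For IMPDH1, all 51 counts of the tRF-3004b library were given to NM_183243 and all 269 of the control library to NM_001142573, out of 8 transcripts. PAICS was carried mainly by NM_006452, with 96.4% in the tRF-3004b library and 97.8% in the control library, and its NM_001079524 held 3.61% (interval 2.79% to 4.57%) in the tRF-3004b library and 1.98% (1.79% to 2.18%) in the control library. The PPAT transcript NR_156493 had 0 of 513 counts in the tRF-3004b library, which allows up to 0.717%, against 2.72% (2.27% to 3.24%) in the control library. The rest of PPAT was NM_002703. These shares are estimates over transcripts with shared sequence, and the intervals hold no error of that assignment.

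**Figure D4:**
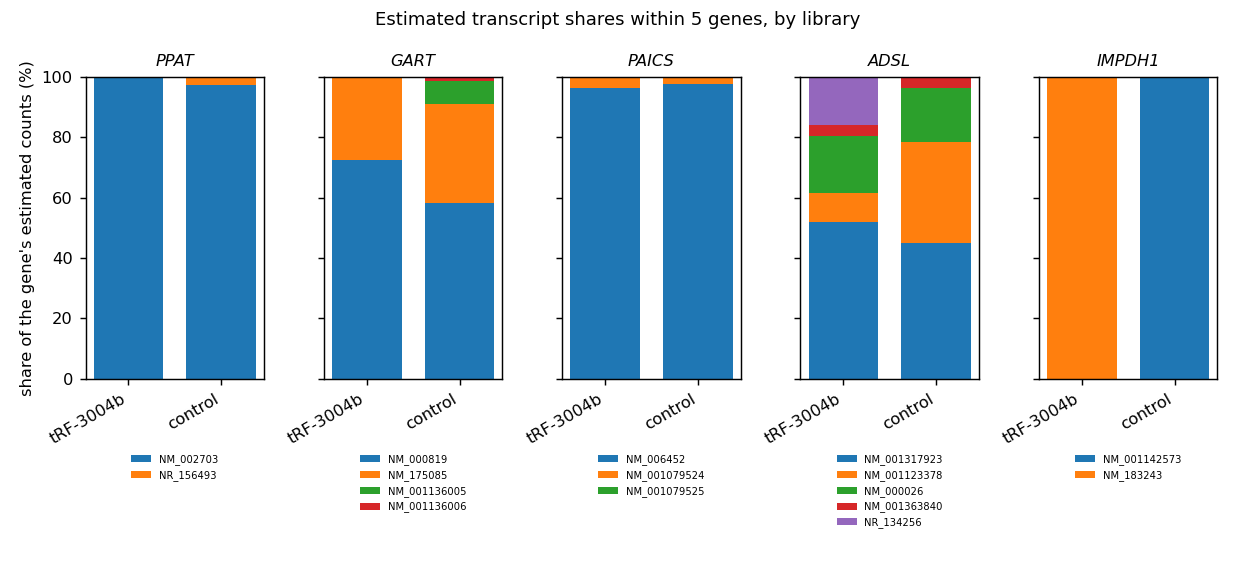
Stacked bars give the share of each gene's estimated counts (percent, vertical axis) held by each RefSeq transcript, with the tRF-3004b library at the left and the control library at the right. The bars of IMPDH1 are a different transcript in each library, and those of GART and ADSL differ in their makeup.

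Folate enzymes, which supply the formyl groups used by GART and ATIC, lay on both sides of 0. Of 14 measured genes of the folate list the intervals of 5 lay above 0 and those of 5 below, against 23.3% and 28.6% of all genes. The median log2 ratio was 0.03, but -0.02 with total counts, -0.0070 with a mean CPM of at least 5 or 10 or no filter, and -0.31 with TPM and 1 added. MTHFD1, the cytosolic enzyme that makes the formyl donor, had 583 counts in the tRF-3004b library and 6575 in the control library, a log2 ratio of -0.0070 (interval -0.13 to 0.12). The mitochondrial enzymes ALDH1L2 and MTHFD2 were the lowest, at -2.06 and -1.39, with 23.4 and 258 TPM in the tRF-3004b library and 123 and 863 TPM in the control library. MTHFS, which recycles a formyl-folate, was at 0.94 (interval 0.60 to 1.28) and the folate transporter SLC19A1 at 0.79, with the lower end of the interval at 0.01. The summed list had 2193 CPM in the tRF-3004b library and 3237 CPM in the control library.

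Purine salvage and the conversion of nucleotides had medians above 0 in TMM-scaled counts, though not by TPM. Of 12 measured salvage and degradation genes 10 were higher, as were 6121 of all 13752 genes, 6 with the interval above 0 (23.3% of all genes) and 1 with it below (28.6%), with a median log2 ratio of 0.32. HPRT1, which salvages hypoxanthine and guanine, had 702 counts in the tRF-3004b library and 6818 in the control library, a log2 ratio of 0.21 (interval 0.09 to 0.32). ITPA, which clears inosine triphosphate, was the highest at 1.61 (interval 1.10 to 2.11), followed by the nucleotidase NT5C at 1.28, while the deoxycytidine kinase gene DCK was lowest at -0.25 and NUDT16 followed at -0.06. Of 17 measured conversion genes 11 were higher, 9 with the interval above 0 and 5 with it below, against 23.3% and 28.6% of all genes, and the median was 0.31. The GMP reductase gene GMPR, with 8 and 13 counts in the tRF-3004b and control libraries, was at 2.70 (interval 1.31 to 4.17). AK6, whose locus overlaps another gene, was at 1.59 (interval 1.41 to 1.77). AK5 had 1 count in the tRF-3004b library and 89 in the control library, with an interval from -8.31 to -0.47. ADSS1, an adenylosuccinate synthase gene, had 0 counts in the tRF-3004b library and 70 in the control library, with the upper end of the interval of its log2 ratio at -0.72. Its abundant relative ADSS2 was at 0.20 (interval 0.07 to 0.33). With TPM and 1 added the median was -0.0074 for the salvage list and -0.02 for the conversion list, against -0.38 for all genes. The conversion median was 0.58 with a mean CPM of at least 5 or 10 or with no filter.

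The remaining lists lay near the purine genes or below them. Pyrimidine synthesis had a median log2 ratio of 0.0023 over 12 genes, with 3 intervals above 0 and 3 below, near the 23.3% and 28.6% of all genes, from CTPS2 at -0.74 and DUT at -0.56 to UMPS at 0.56 and CMPK1 at 0.57. That median turned to -0.05 with total counts, -0.14 with length bin medians removed and -0.33 with TPM and 1 added. The subunits of ribonucleotide reductase, which makes deoxynucleotides, were at -0.37 for RRM2B, -0.32 for RRM1 and 0.13 for RRM2. Genes of the pentose phosphate route, the source of ribose 5-phosphate, had a median of -0.09 over 7 genes, with 3 intervals above 0 and 2 below (23.3% and 28.6% of all genes), from PGLS at -0.55 and TKT at -0.49 to TALDO1 at 0.29 and PGD at 0.33. That median turned to 0.26 at a mean CPM of at least 10 and 0.15 with the control thinned. These medians are descriptions, and no difference between lists was tested.

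**Figure D5:**
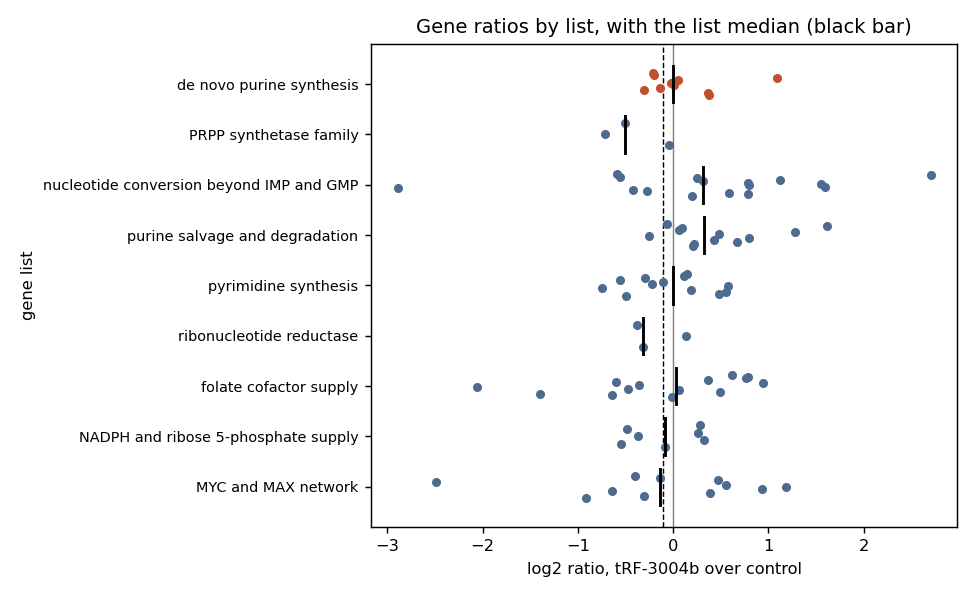
Each point is a gene with a mean of at least 1 CPM, placed by its log2 ratio of tRF-3004b over control (horizontal axis) in 9 lists, with the list median as a black bar and the median of all genes as a dashed line. ADSS1, with 0 counts in the tRF-3004b library, is not drawn. The 10 purine synthesis genes span a narrower range than the folate list, which reaches -2.06. Their range is wider than that of pyrimidine synthesis, from -0.74 to 0.57.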

How the data were processed

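Poly-A RNA of 2 libraries, 1 per group, was compared. The submitters' processing notes name kallisto 0.46.1 as the tool and GRCh38 as the build. The authors deposited, per the file headers, estimated counts and TPM for 70866 RefSeq transcripts, with their lengths in bases. Annotation release: not given in the sources used here, and the same holds for the strand setting. Transcripts were named with a RefSeq table of GRCh38.p14 (70245) or GENCODE 29 (309), and 312 unnamed ones, holding 0.0617% of tRF-3004b counts and 0.0608% of control counts, were left out. Per gene symbol, the deposited estimated counts were added up and then rounded, and TPM was added up.

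Scaling used TMM (edgeR 4.0.16, R 4.3.3), with factors of 0.983 for the tRF-3004b library and 1.02 for the control. The log2 ratio is tRF-3004b over control with 0.5 counts added. The 95% interval was the exact Clopper-Pearson one, conditional on the gene's total over both libraries, and differences between genes have the exact conditional interval of the odds ratio. With 1 library per group no count test was run and no p-value is given. Reads counted without molecular identifiers can repeat a molecule, and each interval and each limit for a count of 0 includes counting error alone. The computation was checked on simulated counts. Protein sequences were not analysed here.

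The members and gene lists were chosen with earlier results of these data known. Beside the members, the text names the 2 highest and 2 lowest measured genes of each list (all, in lists of 4 or fewer), and MYC, MTHFD1 and HPRT1. ADSS2 was named after its value was seen. The seed search was also added then, with GENCODE partners whose length differed by at most 5%. The alternatives tried were DESeq2 1.42.0 size factors, unscaled total counts, TPM with 1 added, 5 counts added, mean CPM of at least 5 or no filter, coding transcripts only, length bin medians removed and a thinned control. A mean CPM of at least 10, and the median without PAICS, were added after seeing the data. Python 3.11.15, numpy 2.4.6, pandas 2.3.3, scipy 1.17.1 and matplotlib 3.10.9 were used.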

Additional observations from a re-analysis of the deposited data

How the results depend on the processing

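No paired analysis was possible because each group has 1 library. With TPM and 1 added, the median log2 ratio of the 10 genes was -0.38, that of all genes also -0.38, and 0 members were at least 2-fold higher. With the length bin median removed, the members' median was 0.17, 5 members had an interval above 0, and GMPS turned to 0.24. With the control thinned to the tRF-3004b depth, 5 members had an interval above 0, and the median of all genes moved to 0.01. With no filter beyond 1 count the median of all genes was -0.27. Total counts, DESeq2 size factors, 5 counts added, coding transcripts only, the stricter filters and leaving out PAICS kept the members' median within the median counting interval and the counts of members within 1.5 times. With coding transcripts only, ADSL was at -0.27. The medians of the members and of the MYC, pentose phosphate, folate, pyrimidine, salvage and conversion lists changed sign under at least 1 setting. That of the members was 0.03 with DESeq2 size factors and 0.14 with the control thinned. Depth limits PFAS and IMPDH1 most, with 66 and 51 counts in the tRF-3004b library.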
